A study of Mus musculus with 2 samples.

Results

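The 8 genes described here are Hmgcs1, Idi1, Fdps, Fdft1, Sqle, Lss, Cyp51 and Insig1, which were chosen by symbol as targets of SREBP2 in sterol metabolism and were all found once among 26082 genes of the deposited tables. The first 7 encode enzymes of cholesterol synthesis, and Insig1 encodes a regulator of the same pathway. No gene of sterol uptake is among them, so the set is called the sterol synthesis genes. They were measured in primary mouse fibro-adipogenic progenitors (FAPs), stromal cells of skeletal muscle that can become adipocytes, which by the labels were wild type in genotype. One library was made from FAPs transfected with plasmids overexpressing TGFBR3 and 1 library from FAPs transfected with the vector as control. Both cultures were under adipogenic differentiation, in DMEM with 20% FBS to which IBMX (0.5 mM), dexamethasone (0.25 μM) and insulin (10 μg/ml) were added. The labels do not give the age of the mice, how many were pooled or the days of differentiation. Since each condition has 1 library, differences have no replicate check, no test is possible and no p-value is given. All values compare these libraries, which are called the TGFBR3-labelled library and the vector-labelled library.

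Cells make cholesterol from acetyl-CoA through mevalonate, isoprenoid pyrophosphates, squalene and lanosterol. The transcription factor SREBP2 switches on nearly all genes of this route when membranes of the endoplasmic reticulum run short of sterol. SCAP carries SREBP2 to the Golgi, where proteases release its active part, and the INSIG proteins hold SCAP back when sterol is plentiful. Because Insig1 is itself a target of SREBP2, its transcript is widely read together with those of the enzymes.

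Total counts were 62321027 in the TGFBR3-labelled library and 83779203 in the vector-labelled one. Tgfbr3, the overexpressed gene, had FPKM values (counts scaled to exon length and library depth) of 36.9 and 35.1 in this order, a log2 ratio of 0.068 (95% CI 0.039 to 0.097) that turned to -0.058 when centred on the median gene. The overexpression was not visible in its transcript in these libraries, and every direction below is that of the labels. The paper also lists RT-PCR of TGFBR3 in FAPs given the plasmid or the vector, but its text prints no value. Of 8 FAP markers 5 had a ratio below 0 and 2 were at least 1.5-fold lower. Of 11213 genes with a mean FPKM of 1 or more, 36.7% and 4.91% were. The 2 markers were Col3a1, at an FPKM of 95.8 and 199 (log2 ratio -1.05), and Col1a1, at 467 and 870 (-0.90). Their part in the values below was not tested. Ly6a was at 1013 and 706, Lum was near 0 in both libraries, at 0.27 and 0.03, and Pdgfra, named as the defining marker after its values were seen, was at 30.5 and 32.6. The summed FPKM of 7 macrophage markers was 0.78 and 0.49, with Adgre1 and Tyrobp at 0 counts in both libraries, that of 4 muscle cell markers was 1.18 and 0.81, and that of 5 endothelial markers was 2.16 and 2.05.

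Of the 8 genes, 5 have a promoter in the RefSeq table of GRCm38.p6, which gives the window from 250 bases before to 50 bases after the start site. The promoters of Hmgcs1, Insig1 and Lss are shown because the first holds the element that SREBPs bind, the second belongs to the regulator of the pathway and the third to the gene whose RNA was higher in the TGFBR3-labelled library. They are chr13:119690101-119690400, chr5:28071162-28071461 and chr10:76531355-76531654, all on the plus strand. Capitals mark matches on either strand to a sterol regulatory element (TCACNCCAC), the CCAAT box (CCAAT) and the GC box (GGGCGG), which do not share letters in these windows.
Hmgcs1: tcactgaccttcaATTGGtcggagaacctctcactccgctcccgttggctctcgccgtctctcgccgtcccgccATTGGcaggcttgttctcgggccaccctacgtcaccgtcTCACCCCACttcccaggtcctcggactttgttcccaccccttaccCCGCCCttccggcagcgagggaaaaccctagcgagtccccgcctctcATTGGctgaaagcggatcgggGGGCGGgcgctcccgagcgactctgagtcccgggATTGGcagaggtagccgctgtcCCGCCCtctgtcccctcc
Insig1: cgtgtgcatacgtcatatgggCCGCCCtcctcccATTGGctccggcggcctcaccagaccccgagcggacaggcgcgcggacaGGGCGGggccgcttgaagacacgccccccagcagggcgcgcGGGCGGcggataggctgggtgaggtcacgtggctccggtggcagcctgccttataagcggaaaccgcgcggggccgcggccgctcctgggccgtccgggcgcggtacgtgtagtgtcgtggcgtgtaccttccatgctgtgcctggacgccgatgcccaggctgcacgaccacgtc
Lss: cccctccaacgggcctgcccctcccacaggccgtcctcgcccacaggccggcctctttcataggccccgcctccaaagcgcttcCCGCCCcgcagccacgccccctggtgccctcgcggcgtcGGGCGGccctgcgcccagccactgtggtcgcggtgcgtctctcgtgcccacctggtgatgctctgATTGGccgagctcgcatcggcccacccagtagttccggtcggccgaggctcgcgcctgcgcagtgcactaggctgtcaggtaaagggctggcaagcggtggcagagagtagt
The sterol regulatory element occurs once in the Hmgcs1 window, starting 137 bases before the start site, and in none of the windows of Idi1, Lss, Cyp51 and Insig1. It is rare, as 1.24% of 32851 promoters of this length hold it. Each of the 5 windows holds at least 1 CCAAT box, with 4 in Hmgcs1, 2 in Idi1 and 1 each in Lss, Cyp51 and Insig1, whereas 37.4% of all promoters hold one. A GC box is also present in each of the 5 and in 35.7% of all promoters. The missing letters say nothing of SREBP2 at Lss, Cyp51, Idi1 or Insig1, since sterol elements vary in sequence and can lie outside the window.

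In the TGFBR3-labelled library, 7 of the 8 sterol synthesis genes had lower values than in the vector-labelled library, and Lss had a higher one. A log2 ratio below 0 was found for 36.7% of the 11213 expressed genes (mean FPKM of 1 or more), a group that includes all 8. The median log2 ratio of (FPKM + 1) was -0.37 over the 8 genes and 0.14 over the 11213 genes. Sqle was the lowest, at 53.9% of the vector control by plain FPKM, and Lss was at 135% of it. The counts of the 8 genes together were 9191 and 16488, or 147 and 197 CPM, so that their share was 0.749 times that of the vector control (95% CI 0.730 to 0.769). Intervals here are exact Clopper-Pearson intervals for counting error only, and they hold nothing of the difference between cultures. In bulk RNA, fewer cells of a type and less RNA per cell cannot be told apart.

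**Figure D1:**
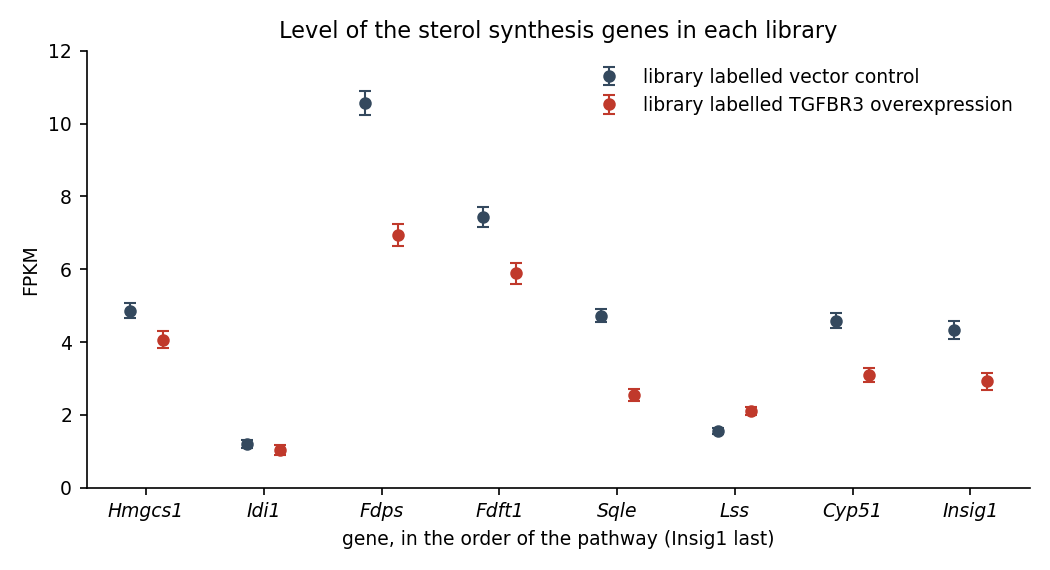
Level of the 8 genes in FPKM (vertical axis) in the vector-labelled library (dark points) and the TGFBR3-labelled library (red points), with exact 95% Poisson intervals of the counts as bars. Fdps is the highest gene in both libraries, and Lss is the single gene whose red point lies above its dark one.

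The route starts in the cytosol with Hmgcs1, whose product HMG-CoA synthase joins acetyl-CoA to acetoacetyl-CoA. Hmgcs1 (ENSMUSG00000093930, chromosome 13 of mm10, 119690379 to 119708260) reached FPKM values of 4.07 in the TGFBR3-labelled library and 4.86 in the vector-labelled one, on 1270 and 2065 counts. This gave a log2 ratio of -0.21 (95% CI -0.29 to -0.13), among the smaller decreases of the set. The exons overlap an antisense gene, Gm48342, which had 0 counts in both libraries.

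Isopentenyl-diphosphate isomerase, encoded by Idi1, interconverts the 5-carbon isoprenoid units. Idi1 (ENSMUSG00000058258, chromosome 13 of mm10, 8885501 to 8892451) was the scarcest of the 8 genes. Its FPKM was 1.03 against 1.20, from 244 and 389 counts, and the log2 ratio of -0.12 (95% CI -0.24 to 0.008) was not distinguishable from 0 at this depth. Of its 31-base words, 27.1% also occur in other genes, mainly in the pseudogene Gm13502, which had 48 and 15 counts, so that reads could be split between them.

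Farnesyl diphosphate synthase, the product of Fdps, builds the isoprenoid from which sterols, prenyl groups and other branches are drawn. Fdps (ENSMUSG00000059743, chromosome 3 of mm10, 89093588 to 89101959) had the highest level in both libraries, with FPKM values of 6.94 in the TGFBR3-labelled library and 10.56 in the vector-labelled library. The 1985 and 4108 counts gave a log2 ratio of -0.54 (95% CI -0.61 to -0.47), and the plain FPKM was 65.7% of the vector control (95% CI 62.3 to 69.4). Other genes share 27.9% of its 31-base words, among them processed pseudogenes and the overlapping Gm43738. Of these, Gm3571 had 127 and 222 counts and Gm5873 had 31 and 14, few beside those of Fdps. No counts were at hand for Gm43738, which shares the most words (24.6%), so its part was not assessed.

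Squalene synthase, encoded by Fdft1, commits farnesyl diphosphate to sterols. Fdft1 (ENSMUSG00000021273, chromosome 14 of mm10, 63145150 to 63179578) had FPKM values of 5.89 and 7.44, on 1647 and 2832 counts. They gave a log2 ratio of -0.29 (95% CI -0.37 to -0.22). Its exons share 774 bases with Ctsb on the opposite strand, and Ctsb was far more abundant, at an FPKM of 270 and 220, with a ratio of the other sign (0.29). The labels describe libraries that keep the strand, but whether the counting used it is not given in the sources used here.

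Squalene epoxidase, the product of Sqle, adds the first oxygen of the sterol ring system and is regarded as a rate-limiting step after squalene. Sqle (ENSMUSG00000022351, chromosome 15 of mm10, 59315077 to 59331192) had an FPKM of 2.55 in the TGFBR3-labelled library and of 4.73 in the vector-labelled one, on 961 and 2428 counts. On the log2 scale the ratio stood at -0.69 (95% CI -0.77 to -0.61), and plain FPKM was 53.9% of the vector control (95% CI 50.0 to 58.1). Among the 11213 genes, 3.3% had a lower ratio than Sqle. Its exons overlap no other gene, and 0.97% of its 31-base words occur elsewhere, so that few of its reads could be shared.

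Lanosterol synthase, encoded by Lss, closes the ring from the epoxide that Sqle makes. Lss (ENSMUSG00000033105, chromosome 10 of mm10, 76531588 to 76557138) had FPKM values of 2.11 and 1.56, from 1545 and 1555 counts, which put it at 0.28 on the log2 scale (95% CI 0.21 to 0.35). It was thus higher in the TGFBR3-labelled library, on the opposite side of 0 from the genes before and after it in the route. The direction held under every way of computing it, but the size fell to 0.025 with the trend over exon length removed. The exons of its 8 annotated transcripts cover 10787 bases, while its longest coding transcript has 4667, which makes its FPKM low for its counts. The gap was also wide for Fdps, at 4208 and 1382 bases, and for Sqle, at 5546 and 2758, and smaller for the other genes of the set.

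Lanosterol 14-alpha demethylase, the product of Cyp51, removes the first methyl group of lanosterol. Cyp51 (ENSMUSG00000001467, chromosome 5 of mm10, 4081145 to 4104746) had an FPKM of 3.09 in the TGFBR3-labelled library and of 4.59 in the vector-labelled library, on 926 and 1873 counts. The log2 value was -0.45 (95% CI -0.54 to -0.36), and Cyp51 stood at 67.3% of the vector control by plain FPKM. Of its 31-base words 3.88% occur in other genes, most of them in Akap9 at its edge.

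Insig1 (ENSMUSG00000045294, chromosome 5 of mm10, 28071363 to 28078662), the regulator that retains SCAP, lay near Fdps and Cyp51 in its ratio. Its FPKM was 2.92 and 4.33, from 613 and 1238 counts, which on the log2 scale is -0.44 (95% CI -0.55 to -0.34). By plain FPKM it stood at 67.4% of the vector control, beside 67.3% for Cyp51 and 65.7% for Fdps. The counting intervals of these 3 genes overlap, so that their order is not resolved.

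**Figure D2:**
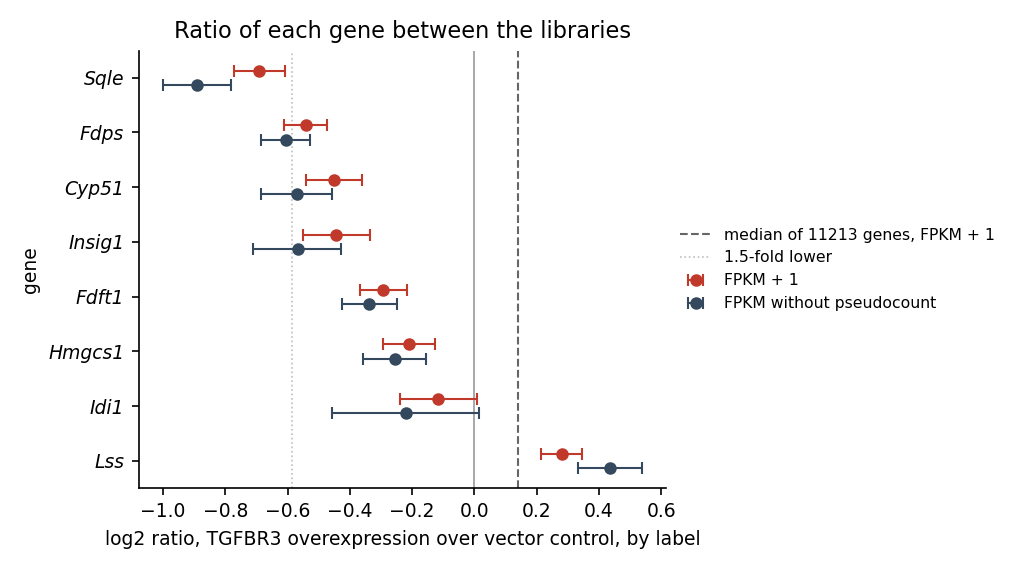
Log2 ratio of each gene (horizontal axis, TGFBR3-labelled library over vector-labelled library) for FPKM with 1 added (red) and without (dark), with exact 95% counting intervals. All genes but Lss lie left of 0 and left of the dashed median of all expressed genes, and the upper bound of Idi1 reaches 0.

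The genes fell into levels that counting error separates only in part. By FPKM in the vector-labelled library the order was Fdps, Fdft1, Hmgcs1, Sqle, Cyp51, Insig1, Lss and Idi1, and the neighbors from Hmgcs1 to Insig1, at 4.86, 4.73, 4.59 and 4.33, had overlapping intervals. In the TGFBR3-labelled library the order was Fdps, Fdft1, Hmgcs1, Cyp51, Insig1, Sqle, Lss and Idi1, so that Sqle moved from the fourth place to the sixth. There the intervals of Cyp51 and Insig1 and those of Insig1 and Sqle overlapped. The median FPKM of the 8 genes was 3.00 and 4.66, against 6.91 and 6.02 over the 11213 genes. The median of the set was thus the lower one in both libraries, and more so in the TGFBR3-labelled library. Fdps, at 6.94 and 10.56, lay above the median of the 11213 genes in both. The order by FPKM also depends on annotated exon length, as by CPM in the TGFBR3-labelled library Lss (24.8) lay above Hmgcs1 (20.4).

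By the plain log2 ratio, neighbors in the order were separated at 3 places. Lss stood alone at 0.44. Idi1, Hmgcs1 and Fdft1 lay between -0.22 and -0.34 with overlapping intervals between neighbors. Insig1, Cyp51 and Fdps lay between -0.57 and -0.61, separated from Fdft1 and Hmgcs1. Insig1 was not separated from Idi1, whose wide interval (95% CI -0.46 to 0.014) overlaps its own (-0.71 to -0.43). The intervals of Cyp51 and Idi1 meet at -0.457, so that these genes were not clearly separated either. Fdft1 and Insig1 were barely apart, with bounds of -0.426 and -0.428. Sqle stood alone at -0.89.

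A decrease of at least 1.5-fold was reached by 1 of the 8 genes, Sqle, and by 4.91% of the 11213 genes. None reached 1.5-fold in the other direction, where 13.3% of the genes did, and none was 2-fold lower or higher, as 1.03% and 3.14% of the genes were. The added 1 shrinks the ratios of genes this low. Without it, Sqle and Fdps were at least 1.5-fold lower, beside 6.83% of 11208 genes, and none was 1.5-fold higher, beside 20.9%. With the trend over GC content removed, described next, 5 of the 8 were at least 1.5-fold lower and none higher, against 5.83% and 6.35% of 11207 genes.

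**Figure D3:**
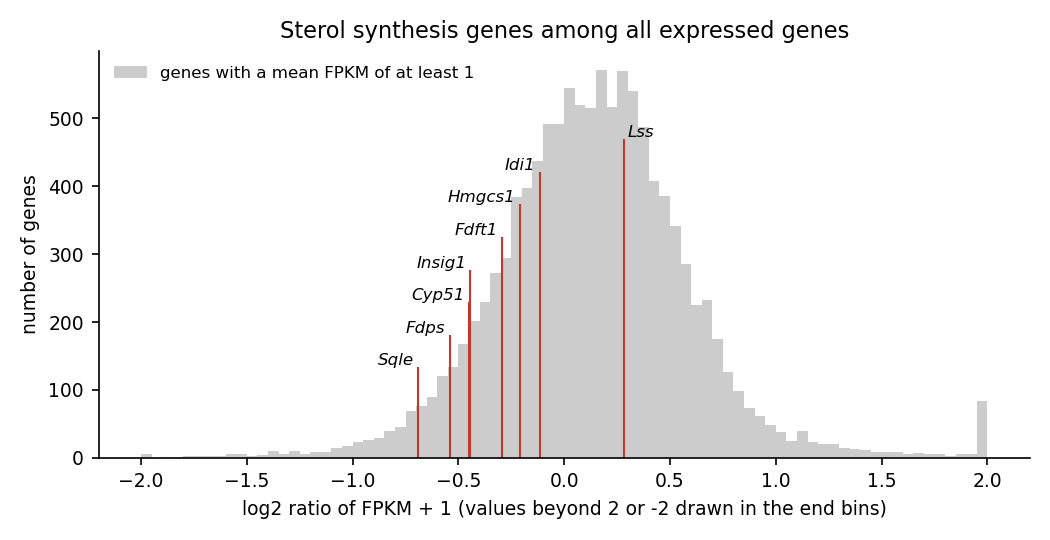
Number of genes (vertical axis) by log2 ratio of (FPKM + 1) for the 11213 expressed genes, with a mean FPKM of 1 or more (gray), with the 8 sterol synthesis genes as red lines whose heights carry no value. Sqle, Fdps, Cyp51 and Insig1 lie in the lower flank and Lss lies near the center.

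Genes that reached an FPKM of 1 in each library had a median log2 ratio of 0.13. Relative to it, the 8 genes ranged from -0.82 for Sqle to 0.16 for Lss, with a median of -0.49. Across genes, exons richer in GC went with lower ratios, the medians of 20 bins running from 0.44 at the lowest GC content to -0.25 at the highest. The exons of the 8 genes held from 41.5% GC in Idi1 to 53.6% in Fdft1, with a median of 47.3% against 50.0% for the 11213 genes. With this trend removed, Hmgcs1 was at -0.59, Idi1 at -0.55 and Cyp51 at -0.77, further from 0 than before, and Fdft1 remained at -0.29. The median of the set was then -0.60, and 7 of the 8 were below 0, as were 49.9% of 11207 genes.

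**Figure D4:**
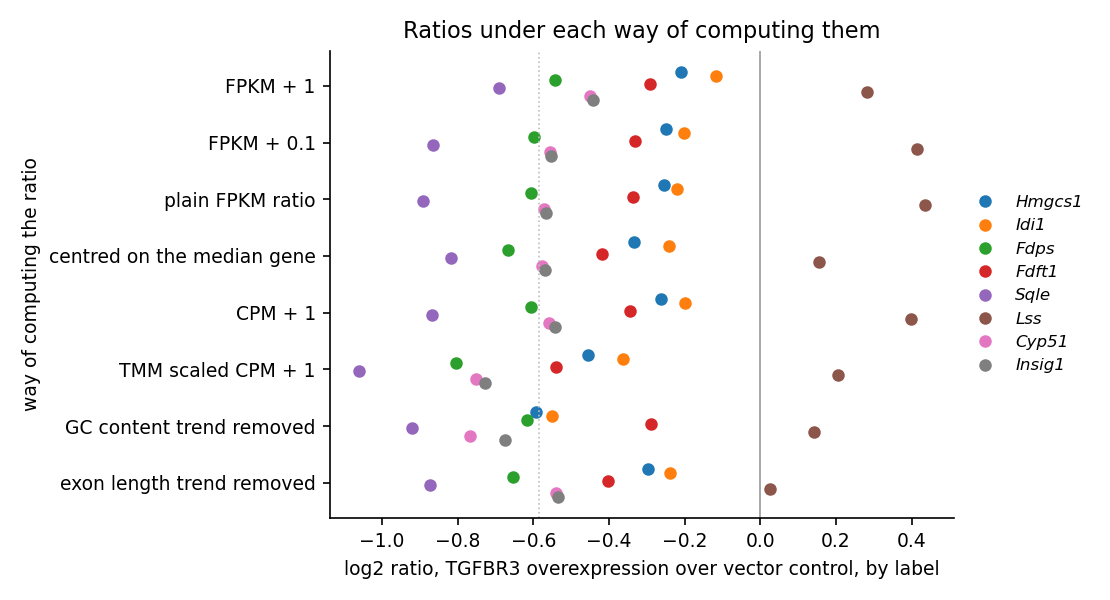
Log2 ratio of each gene (horizontal axis, colors by gene) under 8 ways of computing it (vertical axis), the dotted line marking a 1.5-fold decrease. In every row 7 genes lie below 0 and Lss above it.

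The remaining enzymes of the route lay largely on the same side. Of 14 other sterol synthesis enzymes, 10 had a log2 ratio below 0, 2 were at least 1.5-fold lower and 1 was at least 1.5-fold higher. Of the 11213 genes, 36.7%, 4.91% and 13.3% were, in this order. The median of the 14 enzymes was -0.30. Mvd, which makes isopentenyl diphosphate, had FPKM values of 7.14 in the TGFBR3-labelled library and 10.47 in the vector-labelled one, with a ratio of -0.49 (95% CI -0.60 to -0.39). It lay on the same side of 0 as Sqle.

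The next reactions after Cyp51 differed between genes. Tm7sf2, which like Lbr encodes an enzyme that reduces the C14 double bond, was scarce, at an FPKM of 0.32 and 1.48 from 100 and 607 counts. The log2 ratio of Tm7sf2 was -0.91 with the added 1 and -2.21 without it (95% CI -2.53 to -1.90). Lbr was more abundant, at an FPKM of 2.79 and 2.28 from 903 and 1006 counts. Its ratio was 0.21 (95% CI 0.11 to 0.30), which turned to -0.11 with the GC trend removed. Hsd17b7, a ketoreductase of the C4 demethylation, stood out on the other side, at an FPKM of 10.43 against 5.44 and a ratio of 0.83 (95% CI 0.76 to 0.89). With the GC trend removed Hsd17b7 was at 0.49, under the 1.5-fold limit. Counting the 8 genes and these 14 enzymes together, 17 of 22 had a ratio below 0, where 36.7% of the 11213 genes did. The median of the 22 was -0.30.

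The transcripts of the SREBP machinery were not uniform. Srebf2, which encodes SREBP2, had FPKM values of 10.93 in the TGFBR3-labelled library and 18.89 in the vector-labelled one, on 5326 and 12540 counts. The log2 value was thus -0.74 (95% CI -0.78 to -0.69), close to that of Sqle. Srebf1, which encodes the SREBP1 forms that favor fatty acid synthesis, was at 14.52 and 19.92, a ratio of -0.43. SREBPs can drive their own genes, and both fell on the same side of 0 as 7 of the 8 sterol synthesis genes.

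Of the genes that process SREBPs, Scap, Insig2 and Mbtps1 lay nearer to 0 than Srebf1 on the scale with the added 1. Scap was at an FPKM of 16.34 and 16.81, with a ratio of -0.039 that turned to 0.026 with the GC trend removed. Insig2, the paralog of Insig1 that is not known as an SREBP2 target, was at 21.94 and 20.31. Its ratio was 0.11 (95% CI 0.056 to 0.16), which turned to -0.020 when centred, to -0.11 with TMM factors, to -0.18 with the GC trend removed and to -0.016 with the length trend removed. Of the Golgi proteases, Mbtps1 had a ratio of -0.23 and Mbtps2 one of 0.40, the latter turning to -0.043 with the GC trend removed. Without the added 1, Mbtps2 was at 0.68 (95% CI 0.56 to 0.80). It shares 31.3% of its 31-base words with other genes, chiefly Yy2 on the same strand. Among these 6 genes 1, Srebf2, was at least 1.5-fold lower, against 4.91% of the 11213 genes. Without the added 1, Srebf2 was at least 1.5-fold lower and Mbtps2 at least 1.5-fold higher, beside 6.83% and 20.9% of 11208 genes.

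Isoprenoids that leave the route before squalene feed protein prenylation, dolichol and ubiquinone. Of 9 genes of these branches 2 had a ratio below 0, where 36.7% of the 11213 genes did. The median was 0.090, but -0.036 when centred. With the GC trend removed, 5 of the 9 were below 0, as were 49.9% of 11207 genes. Ggps1, which extends farnesyl diphosphate to the geranylgeranyl form, had FPKM values of 8.67 in the TGFBR3-labelled library and 4.02 in the vector-labelled one, which is 0.95 on the log2 scale (95% CI 0.87 to 1.02). With the GC trend removed Ggps1 was at 0.51. Fnta, the shared subunit of the prenyltransferases, was at 18.15 and 26.35, with a ratio of -0.51 (95% CI -0.57 to -0.46). Thus Fdps and Ggps1 lay on opposite sides of 0, while Fnta lay on the same side as Fdps.

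Genes of sterol-stimulated degradation, which remove enzymes of the route at the endoplasmic reticulum, had a ratio above 0 in 4 of the 5 measured, where 63.1% of the 11213 genes did. The count did not hold under other scalings, as 3 of the 5 were below 0 with TMM factors and 2 when centred or with the length trend removed. Ubxn4 had a log2 ratio of 0.51 and Rnf139 one of 0.46, while Rnf145 was at -0.27, and none passed 1.5-fold. Of 7 genes of sterol uptake and other SREBP2 targets, 5 had a ratio below 0, where 36.7% of the 11213 genes did. None reached 1.5-fold with the added 1, where 4.91% of the 11213 genes were 1.5-fold lower and 13.3% higher. Tmem97 was at -0.39 (FPKM 18.72 and 24.91), and Stard4, which carries sterol through the cytosol, was at -0.32 (1.75 and 2.44). Scarb1, the receptor for high-density lipoprotein, was at 0.24, which turned to -0.030 with the length trend removed.

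**Figure D5:**
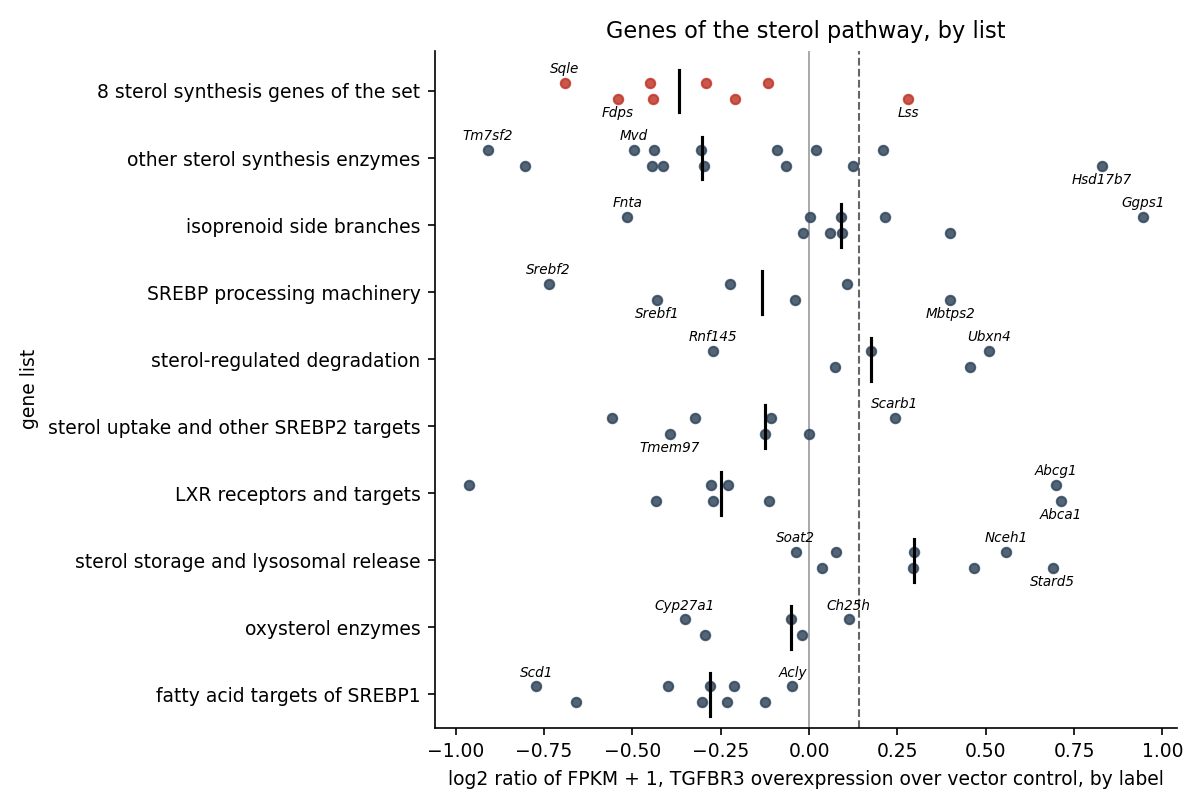
Log2 ratio of (FPKM + 1) of each gene (horizontal axis) by list (vertical axis), with the 8 sterol synthesis genes in red, the median of each list as a black bar and the median of the 11213 genes as a dashed line. The bars of the sterol synthesis genes (-0.37) and the other enzymes (-0.30) lie left of 0, and that of sterol storage and lysosomal release (0.30) lies right of it.

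Liver X receptors (LXRs) sense oxysterols and induce sterol export when cholesterol is in excess, the mirror of SREBP2. The exporters Abca1 and Abcg1 were higher in the TGFBR3-labelled library. Abca1 was at an FPKM of 5.90 and 3.21, which is 0.71 on the log2 scale (95% CI 0.66 to 0.77), and Abcg1 at 3.37 and 1.69, a ratio of 0.70 (95% CI 0.63 to 0.78). With the GC trend removed they were at 0.48 and 0.62, and with the length trend removed at 0.46 and 0.48. The list as a whole did not follow them. Its 8 ratios ran from -0.96 to 0.71, so that the largest difference of the list was a decrease. Of the 8 genes 6 were below 0, 2 were at least 1.5-fold higher and 1 at least 1.5-fold lower, where 36.7%, 13.3% and 4.91% of the 11213 genes were. The median was -0.25, and Nr1h3, which encodes LXR alpha, was at -0.43.

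Of 8 genes of sterol storage and lysosomal release 7 had a ratio above 0, where 63.1% of the 11213 genes did, and the median was 0.30, or 0.14 with the GC trend removed. With TMM factors, when centred or with the length trend removed, 3 of the 8 were below 0. Stard5 (0.69), the ester hydrolase Nceh1 (0.56) and the acyltransferase Soat1 (0.47), which esterifies cholesterol for storage, led the list. With the GC trend removed they were at 0.55, 0.24 and 0.13. Stard5 shares 23.0% of its 31-base words with other genes, chiefly Il16 on the opposite strand. Ch25h, an interferon-induced gene, makes an oxysterol known to hold back SREBP2. Its FPKM was 59.9 and 55.3, with a log2 value of 0.11 (95% CI 0.062 to 0.16), which turned to -0.014 when centred and to -0.11 with TMM factors. Of 5 oxysterol enzymes 4 had a ratio below 0, where 36.7% of the 11213 genes did, and 3 did with the GC trend removed. Of these 4, Cyp27a1 was at -0.35 from 314 and 600 counts, and Cyp46a1 (-0.021) and Cyp39a1 (-0.052) had intervals that span 0. The interval of the remaining gene below 0 did not span 0, and its values are not reported here.

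Adipocyte markers also differed between the libraries. Of 7 such markers 6 were lower in the TGFBR3-labelled library, as were 36.7% of the 11213 genes. None of the 7 markers was at 0, and their FPKM summed to 37.9 and 71.5. Their part in the values of the sterol synthesis genes was not tested.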

How the data were processed

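Poly(A) RNA of 2 cultures of FAPs was sequenced in paired reads of 150 nt by the labels, with 1 library per group. The authors deposited the raw count and the FPKM of each gene, mapped to mm10. The paper's methods name STAR and FeatureCounts, whereas the submitters' processing notes name cutadapt 1.9, HISAT2 2.2.1 and StringTie 2.1.6, and which of them made these values is not settled.

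Ratios are those of the TGFBR3-labelled to the vector-labelled library, as log2 of (FPKM + 1), a scale on which changes of low genes come out too small. The design was written for FPKM, and no count model was run, since nothing estimates the spread. The deposited counts gave exact Clopper-Pearson intervals at the 95% level (scipy 1.17.1), exact Poisson intervals for levels, CPM and TMM factors (edgeR 4.0.16). Trends over GC content and exon length were removed by subtracting medians of 20 bins over the 11213 expressed genes (mean FPKM of 1 or more). Lengths, GC content and 31-base words came from GENCODE M21, which matched 99.7% of 26082 identifiers, and promoters from RefSeq (GRCm38.p6). The calculations were tested on simulated data.

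The 8 genes and all lists were chosen with earlier results of these data known. Values are given for Tgfbr3, the 8 genes, up to 4 genes per list by size of the ratio, and Srebf2, Srebf1, Scap, Insig2, Ch25h and Abca1. Values of Pdgfra, Lum, Lbr, Cyp46a1, Adgre1 and Tyrobp are given outside the order by size. Genes that share sequence with the 8 genes also have values. Some listed genes are counted but their values are not reported here.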

Additional observations from a re-analysis of the deposited data

How the results depend on the processing

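The 7 genes below 0 and Lss above it kept these signs under all 7 alternatives, namely pseudocounts of 0.1 and 0, centring, CPM, TMM factors and the removal of the trends over GC content or exon length. The median of the 8 genes, -0.37, was -0.49 when centred, -0.63 with TMM factors, -0.60 with the GC trend removed and -0.47 with the length trend removed. The number at least 1.5-fold lower, 1 in the report, was 2 with a pseudocount of 0.1, without one, when centred, with CPM and with the length trend removed, 4 with TMM factors and 5 with the GC trend removed. With TMM factors 1 gene, Sqle, was at least 2-fold lower, and no setting gave a gene 1.5-fold higher. The ratio of Tgfbr3, 0.068, turned to -0.058 when centred, -0.15 with TMM factors, -0.089 with the GC trend removed and -0.13 with the length trend removed. The cause was not tested. The share of all genes at least 1.5-fold lower was 2.63% over genes above 0 in either library and 7.12% over those with a mean FPKM of at least 10. Depth limits Idi1 most, with 244 and 389 counts. No paired analysis was possible because each group has 1 library, which is also why no library could be left out.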

Other observations

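Genes of fatty acid synthesis that SREBP1 is known to drive lay on the same side as the sterol synthesis genes. Of 9 such genes all had a log2 ratio of (FPKM + 1) below 0, where 36.7% of 11213 expressed genes did, with a median of -0.28. Scd1, the stearoyl-CoA desaturase, was at -0.77, on 13969 counts in the TGFBR3-labelled library and 32814 in the vector-labelled one, and Fads2, which desaturates polyunsaturated fatty acids, was at -0.66.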
